A study of Mus musculus with 6 samples.

Results

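The nuclear genes for the subunits of the respiratory chain and of the ATP synthase were followed across 3 groups of mouse prefrontal cortex. They were picked by symbol: Nduf followed by a, b, c, s or v and a digit (with Ndufab1), Uqcr, Cox4 to Cox8, Atp5, and the genes Sdha, Sdhb, Sdhc and Sdhd. Of 54134 symbols in each file, 84 had such a name once 8 pseudogene symbols were left out. Of these, 82 had at least 10 reads in at least 2 libraries: 36 for complex I, 4 for complex II, 8 for complex III, 18 for complex IV and 15 for complex V, with Atp5s, a factor related to the ATP synthase, kept apart. Cox8b fell under the minimum with 0 to 8 reads a library, and Cox8c had 0 reads in each of the 6, which allows at most 0.105 to 0.212 CPM (reads scaled to a common library size) by counting error alone. All 82 passed the filter on low counts and were tested among 18705 genes.

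Bulk RNA was taken from mice 6 to 8 weeks old, in biological duplicates, 2 libraries a group. The controls were wild type (C57BL/6 x C3H) and received vehicle. The mutants were Shank3 +/∆C, heterozygous for a C-terminal deletion in a scaffold protein of excitatory synapses, so they kept a normal copy. Vehicle mutants received vehicle, and treated mutants received GSK-LSD1, an inhibitor of the histone demethylase LSD1. Libraries are named control, vehicle mutant or treated mutant with their replicate number, and the plots label these groups WT vehicle, Shank3 vehicle and Shank3 GSK-LSD1. Both mutant groups share the genotype, and GSK-LSD1 was given to no control, so an effect of the compound apart from the mutation is not measured here.

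The respiratory chain sits in the inner mitochondrial membrane. Complexes I and II pass electrons from NADH and succinate to ubiquinone, complex III hands them to cytochrome c, complex IV passes them to oxygen, and complex V, the ATP synthase, makes ATP from the proton gradient that complexes I, III and IV build. Neurons draw most of their ATP from this system to restore ion gradients after synaptic activity. A few of the subunits, among them the innermost ones of complexes I, III and IV, are encoded by the mitochondrial genome, and all others, complex II entirely, by nuclear genes that are also the targets of shared activators such as NRF-1, GABP (an ETS factor) and YY1. All 37 mitochondrial symbols in the files stood at 0 reads, so the subunits of the mitochondrial genome were not analysed here.

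Libraries held 14133834 to 28646960 counted reads. Markers of excitatory neurons were present, at 3095 to 4263 CPM summed over 8 genes. With 2 replicates a group, a p-value sets a difference against a spread estimated from these few samples. That spread is pooled over the 3 groups and steadied by the other genes tested. In bulk tissue, fewer cells of a type and less RNA per cell cannot be told apart.

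Several of these genes have processed copies, spliced messages that were inserted elsewhere in the genome, and their reads can be counted at either place. The stretches shown run over an exon junction of the coding sequence, with the bases of the downstream exon in capitals. Each occurs without a difference, and without the intron, in a copy of 1 exon on another chromosome, so these 60 bases cannot tell gene and copy apart.
Cox7c: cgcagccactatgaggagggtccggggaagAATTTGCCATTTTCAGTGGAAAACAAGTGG
Atp5l: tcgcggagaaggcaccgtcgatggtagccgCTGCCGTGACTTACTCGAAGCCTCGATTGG
Atp5h: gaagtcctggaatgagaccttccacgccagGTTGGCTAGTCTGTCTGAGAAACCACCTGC
Cox5b: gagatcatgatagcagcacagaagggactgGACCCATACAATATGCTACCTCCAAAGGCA
Ndufs3: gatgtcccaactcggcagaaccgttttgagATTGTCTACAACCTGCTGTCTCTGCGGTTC
Atp5g2: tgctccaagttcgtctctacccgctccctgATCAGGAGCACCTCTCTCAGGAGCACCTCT

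The Cox7c stretch (GRCm38, minus strand, chr13:86046601-86046630 and chr13:86045840-86045869, exons 1 and 2) lies in Gm12338 at chr11:75599850-75599909. The Atp5l stretch (minus strand, chr9:44920610-44920639 and chr9:44914782-44914811) lies in Gm10221 at chr5:24581781-24581840. That of Atp5h (minus strand, chr11:115418386-115418415 and chr11:115417906-115417935) lies in Gm10250 at chr15:5120984-5121043, and that of Cox5b (plus strand, chr1:36692255-36692284 and chr1:36692451-36692480) in Gm11273 at chr13:21501212-21501271. That of Ndufs3 (minus strand, chr2:90902363-90902392 and chr2:90898733-90898762) lies in Gm12251 at chr11:58393153-58393212, and that of Atp5g2 (minus strand, chr15:102667711-102667740 and chr15:102665826-102665855) in Gm10175 at chr7:23947164-23947223. All 6 copies lie on the minus strand. Over the whole coding sequence, the 189 bases of Cox7c and the 309 of Atp5l had 0 differences from these copies, the 387 of Cox5b had 3 from Gm11273, and the 789 of Ndufs3 had 11 from Gm12251.

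In the deposited counts most reads of some of these pairs stood at the copy. Atp5l, a small membrane subunit of the ATP synthase, had 11, 44, 37, 84, 57 and 45 reads in control 1 and 2, vehicle mutant 1 and 2 and treated mutant 1 and 2. Its copies together had 550, 1380, 1167, 1264, 1357 and 793 reads, 95.9% of the sum. Copies held 89.9% of the reads for Cox7c (a small subunit of complex IV), 68.6% to 71.7% over the libraries for Cox5b (a subunit of complex IV that binds zinc), 69.7% for Atp5h (peripheral stalk) and 64.9% for Ndufs3 (a core subunit of complex I). In all, 27 of the 82 genes had an annotated copy, 23 had one in the files, and 8 had more reads at copies than at the gene itself.

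Over the libraries the share of reads at the copies ran from 93.8% to 98.0% for Atp5l, from 89.2% to 90.6% for Cox7c and, at the low depth of Atp5g2, from 0 to 48.4% for that gene. The levels printed for these genes leave out the reads at copies, and differences were computed with and without them. Atp5l moved most: counted alone it lay 1.16 ± 0.44 (SE, log2) above the controls in the vehicle mutants (edgeR adjusted p = 0.225), and with its copies added the difference was 0.37. Counted alone, the difference ran from 0.47 without vehicle mutant 2 to 1.86 without control 2. For 46 genes, Ndufa4 and Cox6a2 among them, no stretch of 50 bases of the principal transcript was shared with another gene.

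**Figure D1:**
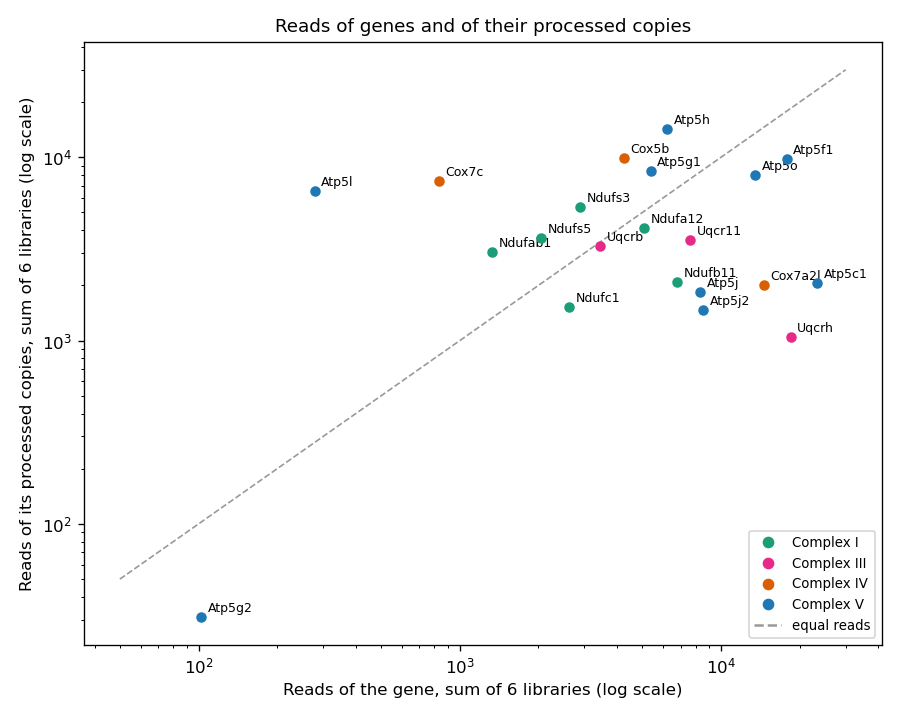
Reads summed over the 6 libraries for each gene (x axis, log scale) and for its processed copies (y axis, log scale), for genes whose copies had at least 10 reads, coloured by complex. Points above the dashed line of equal reads, Atp5l and Cox7c farthest, had more reads at the copies than at the gene.

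Levels between genes are compared as CPM divided by the length in kilobases of the principal transcript, averaged over the 6 libraries. The highest were Atp5b, the catalytic beta subunit of the ATP synthase, at 673 CPM per kb, Cox4i1, the regulatory subunit of complex IV, at 634, and Cox8a, a small subunit of complex IV, at 536. Their ranges over the libraries, 610 to 737, 560 to 723 and 453 to 584 CPM per kb, overlap between neighbours in this order. The lowest were Cox6b2, Cox4i2 and Cox7b2, at 0.707, 0.969 and 1.03 CPM per kb, and their ranges overlap too. These 3 are isoforms known from testis, lung and other tissues.

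Pairs of isoforms had unequal levels. Cox6a1, the common form of a complex IV subunit, lay at 294 CPM per kb and Cox6a2, its heart and skeletal muscle form, at 3.93. Cox7a2 lay at 228 CPM per kb and the muscle form Cox7a1 at 1.82. Ndufa4, now counted with complex IV, lay at 389 CPM per kb, and its relative Ndufa4l2 at 1.16. In each of these pairs the lowest library of the first lay far above the highest of the second.

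The 3 genes for the identical c ring subunits of the ATP synthase were unequal, with Atp5g3 at 236 CPM per kb, Atp5g1 at 9.08 and Atp5g2 at 1.90. For both low values the assignment of reads matters. All 50-base stretches of Atp5g2 occur in other genes, and Atp5g1 had 61.1% of its reads at copies (one of them, Gm11346, also has spliced transcripts) and was divided by a transcript of 4.71 kb, the longest among the 82 genes.

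The libraries differed from each other across the chain. On a log2 scale with a pseudocount of 0.5 CPM, each gene centred on its mean over the 6 libraries, the median of the 82 was -0.20 and -0.07 in the controls, 0.10 and -0.07 in the vehicle mutants, and 0.13 and 0.10 in the treated mutants. Summed over the genes, levels were 8180 and 8941 CPM, 9916 and 8756 CPM, and 10060 and 9855 CPM in the same order. Both treated mutants lay above both controls, while the vehicle mutants stood apart: the first near the treated mutants, the second at the level of control 2. Control 1 was the lowest library for 62 of 82 genes, and the treated mutants were the highest for 32 and 29 genes.

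**Figure D2:**
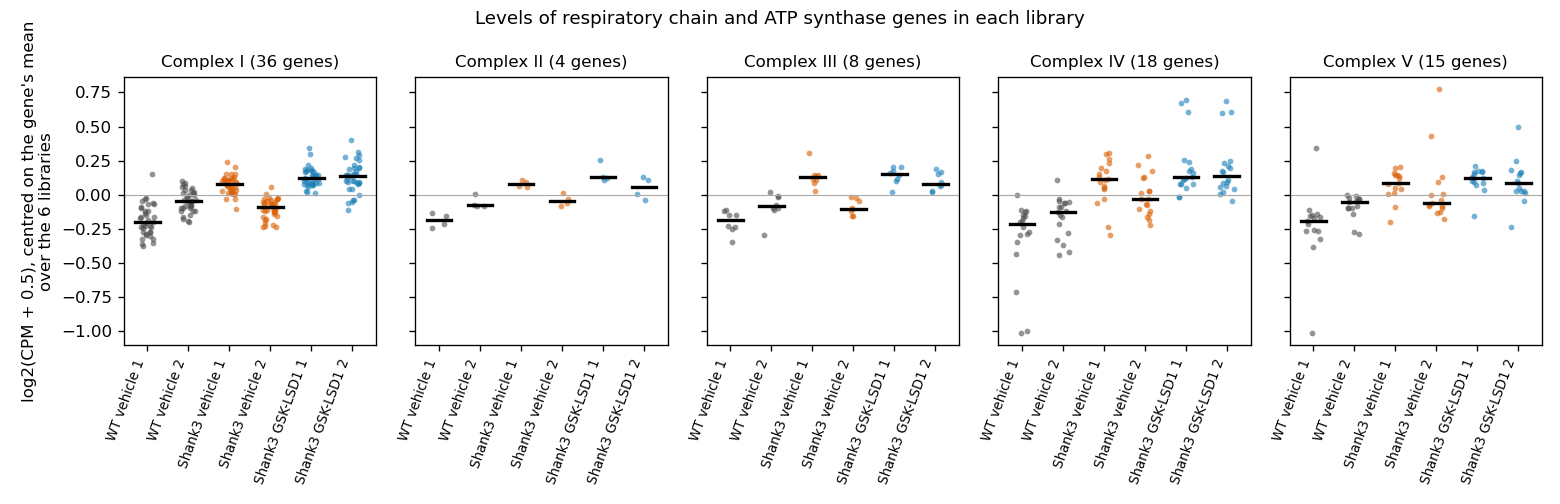
Level of each gene in each library, as log2(CPM + 0.5) centred on the gene's mean over the 6 libraries (y axis), by complex, with black lines at the median. In complexes I to V the medians of both treated mutants (0.06 to 0.15) lie above those of both controls (-0.22 to -0.05), and the vehicle mutants differ from each other.

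The first comparison asks what the Shank3 deletion changes under vehicle. No gene of the chain passed at an adjusted p under 0.05 by edgeR's quasi-likelihood test (0 of 82, where 1.27% of all tested genes passed, 0.278% as higher and 0.994% as lower). At an unadjusted p under 0.05 there were 11 of 82 genes, against 14% of all genes. DESeq2 called 2, Ndufa4 and Ndufc2, where it called 602 of all 18705 genes, and limma-voom called 0, where it called 137. The log2 fold change was positive in 72 of 82 genes against 52.3% of all genes, with a median of 0.15 against 0.02. For 33 genes both mutant libraries lay above both controls, against 23.1% of all genes, and for 1, Ndufa13, both lay below, against 23.1% too.

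The median rested on single libraries. Without vehicle mutant 1 it was 0.05 with 52 genes positive, without vehicle mutant 2 it was 0.23, and without control 1 it was 0.07. By complex the medians were 0.11 for I, 0.15 for II, 0.12 for III, 0.24 for IV and 0.16 for V. Within complex IV the median was 0.22 over 11 subunits and 1.05 over 6 isoforms of other tissues, which lay at a few CPM or less. No difference between complexes was tested.

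Ndufa4 (chr6:11900292-11907497, minus strand), a small subunit of complex IV, came nearest to the threshold. It lay at 137 and 150.0 CPM in controls, 205 and 178 in vehicle mutants, and 198 and 187 in treated mutants. Both mutant groups lay above the controls with no overlap and overlapped each other. The log2 difference between vehicle mutants and controls was 0.41 ± 0.11 (SE, n = 2 libraries a group, edgeR adjusted p = 0.0683), and it passed without treated mutant 1 (adjusted p = 0.0398), without treated mutant 2 (0.0365) and in the fit on the 4 libraries compared (0.0442).

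Ndufc2 (chr7:97400003-97407802, plus strand), a membrane subunit of complex I, lay at 49.6 and 56.4 CPM in controls, 73.3 and 66.1 in vehicle mutants, and 70.2 and 69.8 in treated mutants. Its difference between vehicle mutants and controls was 0.39 ± 0.11 (adjusted p = 0.0831). Uqcrb, the subunit of complex III that helps to bind ubiquinone, lay at 21.4 and 22.1, 33.8 and 26.9, and 31.4 and 30.2 CPM, a difference of 0.48 ± 0.14 (adjusted p = 0.0908). Both genes were above the controls in all 4 mutant libraries. Uqcrb had 48.9% of its reads at copies, and its difference with them added was 0.43.

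Among the c ring genes Atp5g1 lay at 35.2 and 38.5 CPM in controls, 48.9 and 46.7 in vehicle mutants and 46.6 and 41.1 in treated mutants. The difference of 0.37 ± 0.11 between vehicle mutants and controls (adjusted p = 0.123) was 0.18 with the reads of its copies. Atp5g3 differed by 0.31 ± 0.12 (adjusted p = 0.253), or by 0.14 without control 1 and 0.49 without control 2, and had no counted copy. In complex II, which is also an enzyme of the citric acid cycle, the membrane anchor Sdhd lay at 66.9 and 75.01, 84.8 and 79.9, and 85.5 and 85.6 CPM, with a difference of 0.21 ± 0.10 (adjusted p = 0.377).

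The other genes with the smallest p of their complex did not pass either. In complex I, Ndufa3 and Ndufa7, accessory subunits, differed by 0.22 ± 0.11 and 0.23 ± 0.12 (adjusted p = 0.398 and 0.408). In complex II the differences were 0.16 ± 0.11 for Sdhc and 0.13 ± 0.11 for Sdhb, and in complex III 0.21 ± 0.11 for Uqcr10 and 0.12 ± 0.11 for Uqcrh. Cox6b1, a complex IV subunit on the intermembrane side, lay at 119.9 and 142 CPM in controls and 161 and 150.2 in vehicle mutants, a difference of 0.25 ± 0.11 (adjusted p = 0.322). Both vehicle mutants lay above both controls in all of these but Sdhc. Without vehicle mutant 1 the differences of Sdhc, Sdhb, Uqcr10 and Uqcrh were 0.05, 0.08, 0.12 and 0.01, and without control 1 those of Ndufa3 and Cox6b1 were 0.12 and 0.125.

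**Figure D3:**
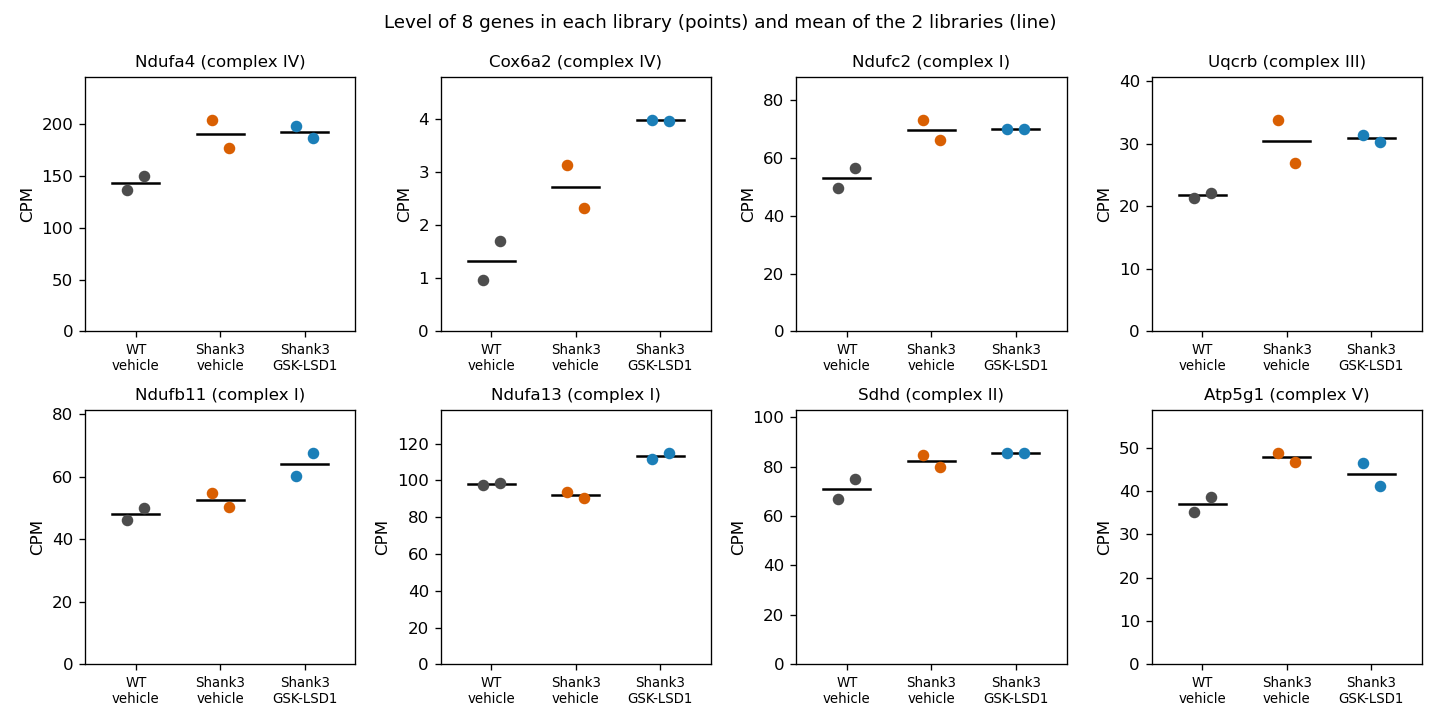
CPM in each library (points) and mean of the 2 libraries (line) for 8 genes, y axes from 0. Ndufa4, Ndufc2, Uqcrb and Sdhd lie above the controls in all 4 mutant libraries, Cox6a2 is highest in treated mutants, and Ndufa13 and Ndufb11 are higher in both treated mutants than in the other 4.

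The second comparison, GSK-LSD1 against vehicle in the mutants, asks what the inhibitor changes. It uses the vehicle mutants of the first comparison again, with the opposite sign. No gene passed by edgeR (0 of 82, where 0.107% of all genes passed, 0.102% as higher and 0.00535% as lower), 4 had an unadjusted p under 0.05 (5.7% of all genes), and DESeq2 and limma-voom called 0 each. The log2 fold change was positive for 75 of 82 genes, against 49.9% of all genes, with a median of 0.11 against -0.0007 over all genes. Both treated mutants lay above both vehicle libraries for 28 genes, against 17% of all genes, and below for 3, against 16.6%.

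This median too depended on which vehicle library was used: it was 0.03, with 50 genes positive, without vehicle mutant 2, and 0.21 without vehicle mutant 1. The complex medians were 0.14 for I, 0.09 for II, 0.10 for III, 0.12 for IV and 0.08 for V. Without vehicle mutant 2 they were 0.06, 0.015, -0.01, 0.06 and -0.02 in the same order. With all libraries, the 11 subunits of complex IV had a median of 0.05 and its 6 isoforms of other tissues 0.45.

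The 4 genes with an unadjusted p under 0.05 all belong to complex I. Ndufa13 (also known as GRIM-19), a subunit needed for its assembly, lay at 97.6 and 98.3 CPM in controls, 93.9 and 90.4 in vehicle mutants, and 112 and 115 in treated mutants. Both treated mutants were above the other 4, and the log2 difference from vehicle was 0.30 ± 0.10 (edgeR adjusted p = 0.617). Ndufv1, the core subunit that holds the flavin and takes up electrons from NADH, lay at 170.0 and 169, 180.1 and 155, and 207 and 194 CPM, a difference of 0.26 ± 0.11 (adjusted p = 0.812). Neither passed, and the vehicle libraries of Ndufv1 spanned the control values.

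Ndufb11, a membrane subunit encoded on the X chromosome, lay at 46.3 and 50.04, 54.8 and 50.2, and 60.3 and 67.7 CPM, with 0.28 ± 0.11 between treated and vehicle mutants (adjusted p = 0.782). Ndufb10, another membrane subunit, lay at 80.5 and 88.7, 82.5 and 71.5, and 88.5 and 94.9 CPM. For Ndufb11 the treated mutants were the highest of the 6, whereas for Ndufb10 control 2 reached the lower of them.

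None of the 3 genes with the smallest p in the other complexes passed. In complex II these were Sdhc (0.12 ± 0.11), Sdhb (0.11 ± 0.11) and Sdha (0.06 ± 0.11), and in complex III Uqcr11 (0.15 ± 0.11), Uqcrfs1 (0.13 ± 0.12) and Uqcrq (0.10 ± 0.10). With a library left out these were as low as -0.05 for Sdhb, -0.001 for Sdha and 0.06 for Uqcrq (without treated mutant 1), and 0.02 for Sdhc, 0.05 for Uqcr11 and -0.01 for Uqcrfs1 (without vehicle mutant 2). In complex IV the differences were 0.21 ± 0.11 for Cox6c, 0.18 ± 0.11 for Cox4i1 and, at a few CPM, 0.55 ± 0.33 for Cox6a2 (adjusted p = 0.923, 0.968 and 0.965). In complex V they were 0.23 ± 0.12 for Atp5h, 0.19 ± 0.11 for Atp5k and 0.18 ± 0.10 for Atp5e. Cox6c, Cox4i1, Cox6a2 and the 3 ATP synthase genes were higher in both treated mutants than in both vehicle mutants. Without vehicle mutant 2 these 6 differences were 0.09, 0.09, 0.34, 0.19, 0.05 and 0.10.

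The 3 genes below vehicle in both treated mutants were all of the ATP synthase: Atp5g1, Atp5g2 and the peripheral stalk gene Atp5j. Atp5g2 had 9 to 28 reads a library, and none of the 3 passed the test. The direction for Atp5g1 turned with the reads of its copies, from -0.12 to 0.05 on the log2 scale. With copies the difference went from -0.62 to -0.25 for Atp5g2 and stayed at -0.04 for Atp5j.

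The third comparison sets treated mutants against controls and shares its libraries with the first and the second. Here 2 genes passed by edgeR, both of complex IV and both higher in the treated mutants (2.62% of all genes passed, 0.636% as higher and 1.99% as lower). The difference was positive for 81 of 82 genes, Atp5g2 being the exception, against 52.6% of all genes. The median was 0.25 on the log2 scale against 0.02 for all genes. At an unadjusted p under 0.05 there were 44 genes, against 15.7% of all genes. For 67 genes both treated mutants lay above both controls and for 0 below, against 23.5% and 22.4% of all genes.

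Each complex had a positive median. Medians were 0.24 for complex I, 0.25 for II, 0.24 for III, 0.29 for IV and 0.25 for V. In the same order, both treated mutants lay above both controls for 27 of 36, 3 of 4, 7 of 8, 16 of 18 and 14 of 15 genes. The share over all tested genes was 23.5%. Core and supernumerary subunits of complex I had medians of 0.23 over 7 and 0.25 over 29 genes. In complex IV the 11 subunits had a median of 0.27 and the 6 isoforms of other tissues 1.59. The 15 genes that overlapped included Cox7a2l, a factor of respiratory supercomplexes, at 117 and 126 CPM in the treated mutants and 118 and 116 CPM in the controls.

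Calls moved with single libraries of either group, and the median moved more with the controls than with the treated mutants. Without control 1, 0 genes passed, 79 were positive, the median was 0.19 and 9 had an unadjusted p under 0.05. Without control 2 the median was 0.33, 1 gene passed and 43 had an unadjusted p under 0.05. Leaving out treated mutant 1 or treated mutant 2 gave medians of 0.23 and 0.26 with 0 genes passing, and 26 and 29 genes at an unadjusted p under 0.05.

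Cox6a2 (chr7:128205435-128206387, minus strand), the heart and skeletal muscle form of a complex IV subunit that is also known from fast-spiking interneurons, had the smallest p of the chain in this comparison and rose. It lay at 0.958 and 1.70 CPM in controls (14 and 47 reads), 3.13 and 2.31 in vehicle mutants (68 and 51 reads), and 3.99 and 3.95 in treated mutants (94 and 58 reads). The 3 groups did not overlap, in this order. The log2 fold change between treated mutants and controls was 1.52 ± 0.35 (n = 2 libraries a group, edgeR adjusted p = 0.0262), and vehicle mutants differed from controls by 0.97 ± 0.35 (adjusted p = 0.201). The call was lost without control 1 (1.22, adjusted p = 0.312), without treated mutant 1 (adjusted p = 0.0598) and without treated mutant 2 (0.0732), and with limma-voom (0.0572), while DESeq2 gave no adjusted p for it.

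Markers of muscle and of interneurons stand beside it. Of 6 heart and skeletal muscle markers 4 were tested and 0 called. The sum of the 6 was 14.4 and 17.4 CPM in controls, 19.2 and 18.4 in vehicle mutants and 20.5 and 21.9 in treated mutants. Actc1 was at 0 in 4 libraries and Ckm at most at 0.317 CPM. All 4 tested markers were positive between treated mutants and controls, with a median of 0.42 (log2). Both treated mutants lay above both controls for 3 of them, against 23.5% of all genes. The interneuron marker Pvalb lay at 19.2 and 25.6, 28.1 and 28.6, and 19.7 and 30.5 CPM, and the groups overlapped. Of 8 inhibitory neuron markers 1, Kcnc1, was called, as lower in treated mutants. The part of these cells in the Cox6a2 difference was not tested.

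Ndufa4, with the values given above, rose by 0.43 ± 0.11 (edgeR adjusted p = 0.0438), 1.34-fold, and was called only narrowly. The call was lost when any 1 of the 6 libraries was left out, with adjusted p from 0.0522 (without vehicle mutant 2) to 0.478 (without control 1), and the log2 fold change stayed between 0.36 and 0.50. It was also lost with limma-voom (adjusted p = 0.0548), with the 4 libraries compared alone (0.0566), without the robust option (0.0697), with the replicate number as a block (0.0565), and, at 0.29, with the length and GC correction described below (0.151), while DESeq2 kept it (0.00704).

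Just over the threshold stood Uqcrb (0.50 ± 0.14, adjusted p = 0.0576), Ndufb11 (0.41 ± 0.11, 0.0591) and Ndufc2 (0.40 ± 0.11, 0.0602). Uqcrb passed once the reads of its copies were added (0.52, adjusted p = 0.0224) and without vehicle mutant 2 (0.0467). Ndufs5, a subunit on the intermembrane side of complex I, lay at 12.9 and 14.1 CPM in controls, 16.9 and 16.1 in vehicle mutants and 20.2 and 18.8 in treated mutants, 0.53 ± 0.15 above the controls (adjusted p = 0.0746). Its 3 groups did not overlap, and with its copy, which held 63.8% of the reads, the difference was 0.43.

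Other subunits followed with smaller differences. Cox7a2, a small complex IV subunit, differed by 0.36 ± 0.11 (adjusted p = 0.104) and Atp5h by 0.37 ± 0.12 (0.117). In complex III, Uqcr10 and Uqcr11, small subunits, differed by 0.30 ± 0.11 and 0.27 ± 0.11 (adjusted p = 0.153 and 0.242). In complex II the differences of Sdhc, Sdhd and the iron-sulphur subunit Sdhb were 0.28 ± 0.11, 0.27 ± 0.11 and 0.24 ± 0.11 (adjusted p = 0.213, 0.213 and 0.315). That of Sdhb ran from 0.07 without treated mutant 1 to 0.38 without treated mutant 2. In each of these 7 genes both treated mutants lay above both controls. The same held for Atp5k, a small membrane subunit of the ATP synthase, and for Atp5e, the epsilon subunit of its central stalk, which differed by 0.31 ± 0.12 and 0.29 ± 0.10 (adjusted p = 0.175 and 0.173).

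Core subunits of the complexes were measured at high depth. Ndufs1, the largest subunit of complex I and a carrier of iron-sulphur clusters, had 137 and 155 CPM in controls, 174 and 151 in vehicle mutants and 165 and 161 in treated mutants. Sdha, the flavin subunit of complex II, had 373 and 411, 427 and 392, and 446 and 410.1 CPM. Uqcrfs1, the Rieske iron-sulphur protein of complex III, had 96.7 and 114, 128 and 104, and 130.2 and 123 CPM. In these 3 genes control 1 was the lowest library and vehicle mutant 2 lay below vehicle mutant 1.

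Cox4i1 had 417 and 442 CPM in controls, 492 and 434 in vehicle mutants and 508 and 538 in treated mutants. Atp5b had 1169 and 1256, 1412 and 1175, and 1349 and 1377 CPM. Both genes were above the controls in both treated mutants, with vehicle mutant 1 above both controls and vehicle mutant 2 between them.

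**Figure D4:**
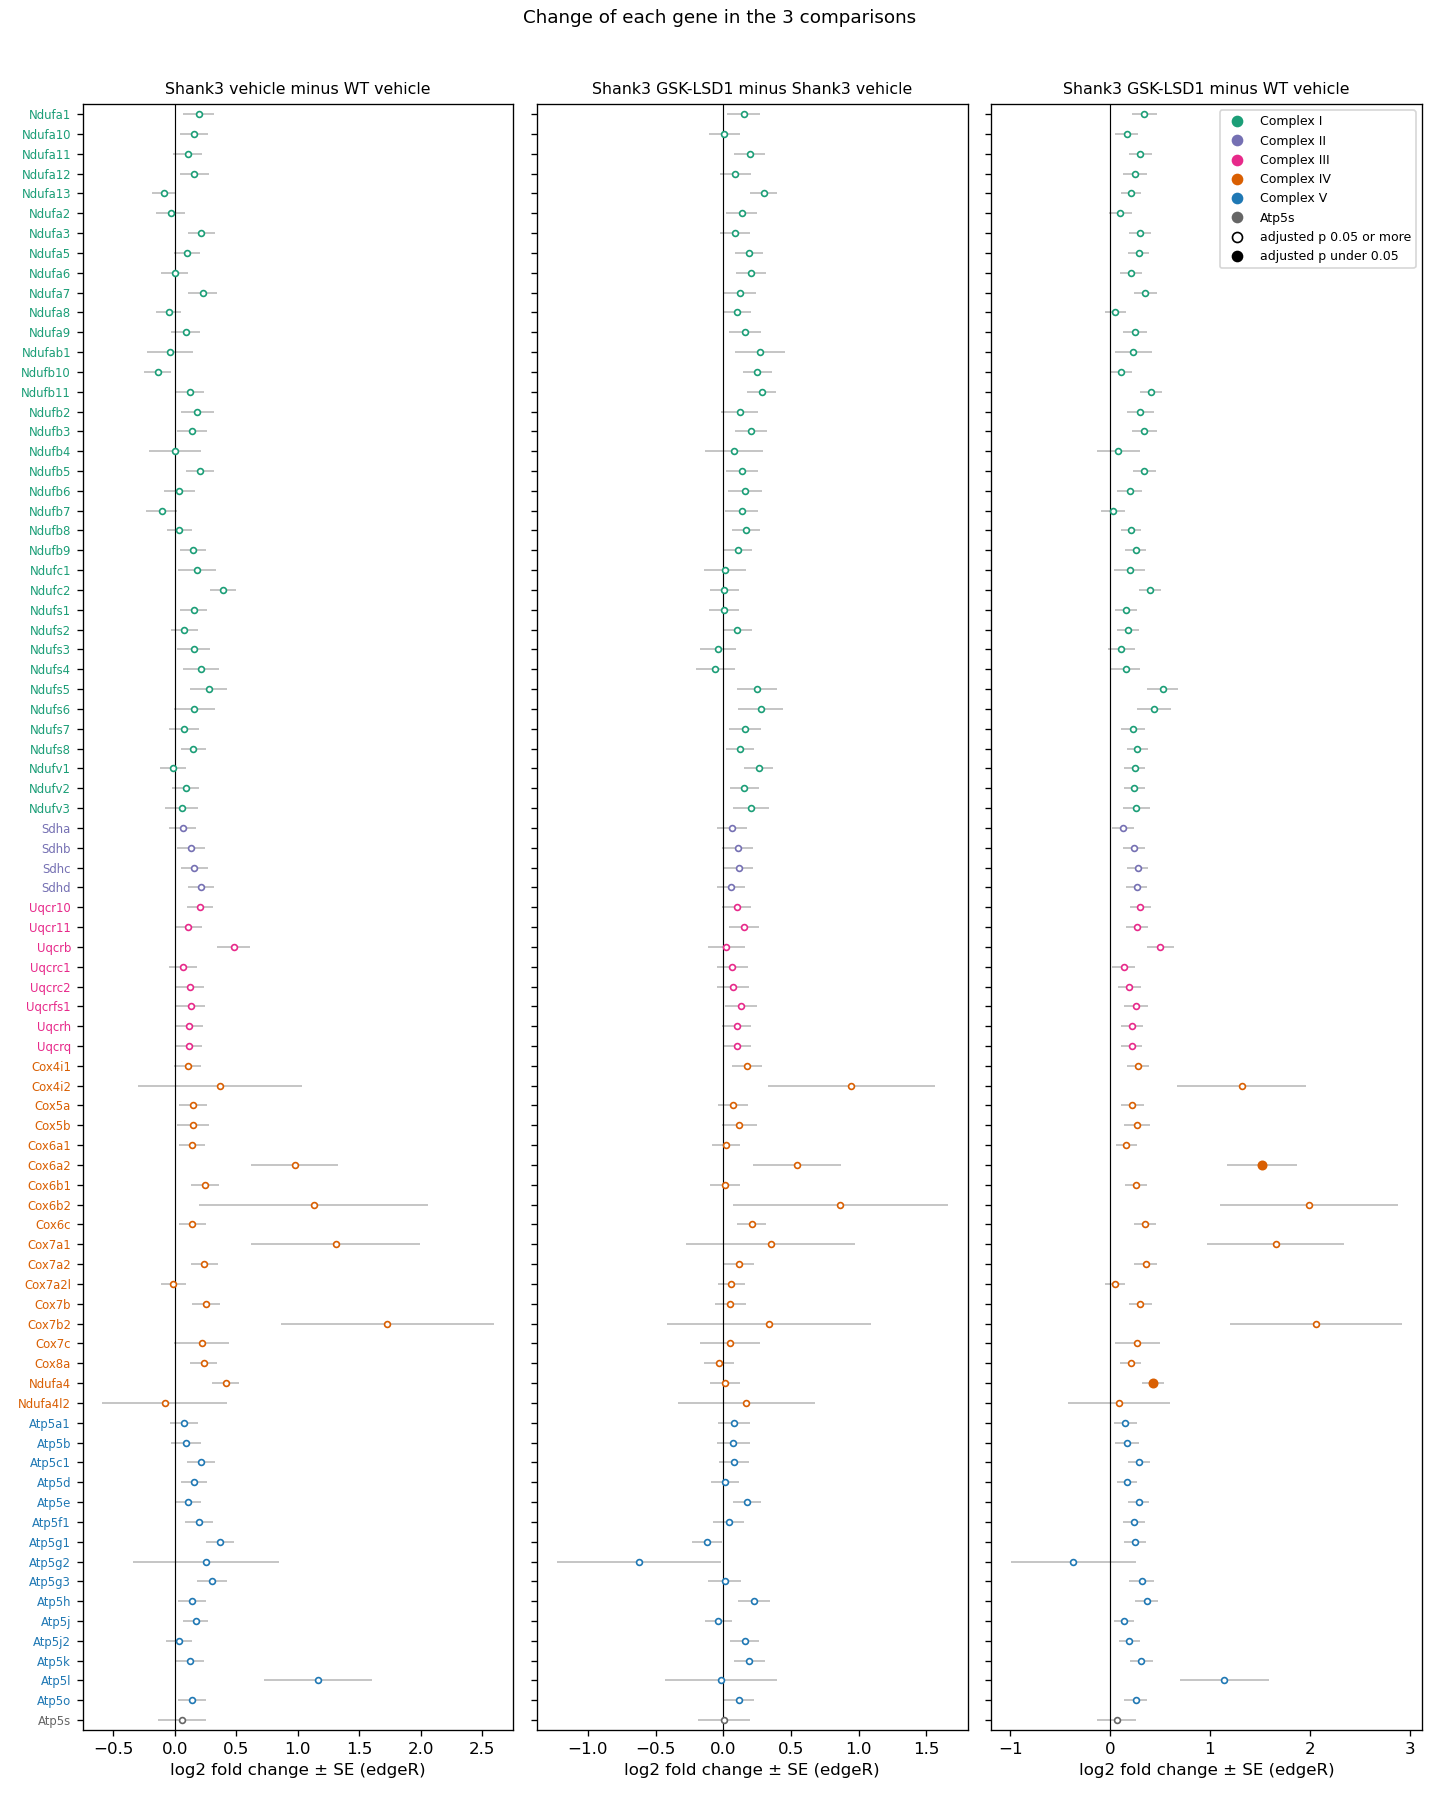
Log2 fold change with its SE from edgeR (x axis) for each of the 82 genes (rows, coloured by complex) in the 3 comparisons, filled points passing at an adjusted p under 0.05. Points lie mostly to the right of 0 in each panel, 81 of 82 in the third, and only Cox6a2 and Ndufa4 are filled. The x ranges differ between panels.

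Isoforms of other tissues had very few reads. Cox7b2, known from testis, had 0 and 9 reads in controls, 16 and 13 in vehicle mutants, and 16 and 15 in treated mutants. Cox7a1 had 3 and 11, 15 and 20, and 17 and 20 reads, Cox6b2 2 and 5, 5 and 11, and 21 and 6, and Cox4i2 8 and 10, 14 and 11, and 32 and 12. None of the 4 passed in any comparison, and all controls were below both treated mutants in CPM. Ndufa4l2, by contrast, overlapped between the groups, at 0.958 and 1.19 CPM in controls, 0.781 and 1.27 in vehicle mutants, and 1.27 and 1.02 in treated mutants. The testis markers Prm1, Prm2 and Tnp1 were at or near 0 in each library, and 1 of 5 pericyte markers, Rgs5, was called as higher, in vehicle mutants against controls.

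The genes are short, with a median exonic length of 1.58 kb against 3.79 kb for all tested genes. The level of a gene relative to its mean over libraries was related to the log2 of its length, across 14304 genes, with r = 0.15 in both controls, -0.12 and 0.09 in vehicle mutants, and -0.15 and -0.13 in treated mutants. The sign was thus opposite in controls and treated mutants. Taking a trend on length and GC content out of each library lowered the medians of the 82 genes to 0.10, 0.07 and 0.16 in the 3 comparisons. In the third, 75 of 82 stayed positive, 17 had an unadjusted p under 0.05 and Cox6a2 alone passed. The part of these trends in the differences was not otherwise tested.

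Ribosomal genes, many of them short too, stand beside these. For 88 cytosolic ribosome genes the medians were 0.03, 0.13 and 0.19 in the 3 comparisons, and for 77 mitochondrial ribosome genes 0.06, 0.06 and 0.14. By library, the centred cytosolic medians were -0.03 and -0.07 in controls, 0.02 and -0.09 in vehicle mutants, and 0.02 and 0.21 in treated mutants. The treated mutants thus differed from each other here. Among the cytosolic ones Rps2 was called as lower in vehicle mutants and as higher in treated against vehicle mutants. Processed copies were not searched for the ribosomal genes. No mitochondrial ribosome gene passed, with 5, 0 and 6 at an unadjusted p under 0.05.

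**Figure D5:**
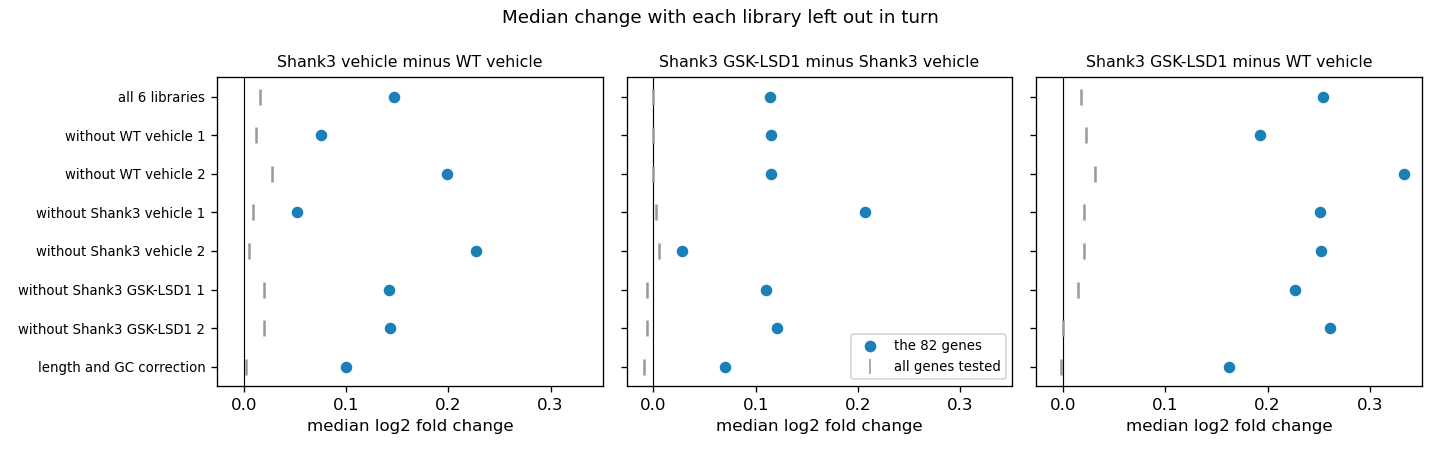
Median log2 fold change (x axis) of the 82 genes (blue) and of all tested genes (grey bars) with all libraries, with each left out, and with the length and GC correction. In the third comparison the blue points stay between 0.16 and 0.33, and in the others they come down to 0.05 and 0.03 without one vehicle mutant.

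Genes that build the chain were taken by complex, and their difference from the subunits was not tested. The 17 tested assembly factors of complex I had medians of -0.01, 0.02 and 0.04 in the 3 comparisons, and 0 passed, with 0 at an unadjusted p under 0.05. The 21 of complex IV had medians of 0.10, 0.02 and 0.10 with 0 passing and 1, 1 and 3 at an unadjusted p under 0.05. Among them Coa3, which acts on the mitochondrially encoded Cox1 protein, lay 0.42 ± 0.12 above the controls in treated mutants (edgeR adjusted p = 0.0819). For complexes II, III and V the lists held 4, 6 and 5 genes and 0 passed, with 2, 0 and 1 of complex II and 0 of the others at an unadjusted p under 0.05.

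Of 19 regulators of mitochondrial biogenesis 0 passed, 1, 2 and 4 had an unadjusted p under 0.05, and their medians were -0.06, -0.04 and -0.08, with 7, 8 and 7 of the 19 positive and the highest at 0.33, 0.73 and 0.49. The coactivators Pprc1 and Ppargc1a (PGC-1alpha) and the nuclear receptor Esrrg, which together drive genes of the chain, had negative differences between treated mutants and controls, of -0.44 ± 0.16, -0.31 ± 0.11 and -0.45 ± 0.16 (adjusted p = 0.164, 0.173 and 0.146). Of 14 citric acid cycle enzymes 0 passed, with 1, 0 and 2 at an unadjusted p under 0.05. Nearest was Idh2, the NADP-dependent isocitrate dehydrogenase, at 0.50 ± 0.13 between treated mutants and controls (edgeR adjusted p = 0.0564). Of 16 glycolysis genes 0, 0 and 1 passed in the 3 comparisons. The latter was Aldoc, an aldolase typical of astrocytes, at 0.56 ± 0.13 between treated mutants and controls (edgeR adjusted p = 0.026).

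Cycs, the cytochrome c that carries electrons from complex III to IV and is not covered by the symbols above, lay at 12.4 ± 1.62 CPM in controls, 19.5 ± 0.896 in vehicle mutants and 15.4 ± 0.691 in treated mutants (mean ± SD, n = 2). It differed by 0.65 ± 0.16 between vehicle mutants and controls (edgeR adjusted p = 0.0507) and by -0.34 ± 0.16 between treated and vehicle mutants (adjusted p = 0.873). Its level in the treated mutants thus lay between the other groups, unlike Cox6a2 and Ndufa4. Of 6 tested genes on a list of subunits outside these symbols, Cycs among them, 0 passed. In the 3 comparisons 5, 4 and 6 of the 6 were positive, with medians of 0.17, 0.05 and 0.23. Cycs was the highest of them in the first comparison and the lowest in the second. Processed copies were not searched for Cycs.

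Markers of other cells also differed between groups. Of 8 astrocyte markers 3 were called as higher in vehicle mutants than in controls and 3 in treated mutants against controls, Gja1 and Aqp4 in both. Their sum was 3361 and 4125 CPM in controls, 4567 and 4716 in vehicle mutants, and 4486 and 4402 in treated mutants. Of 8 excitatory neuron markers 1 and 3 were called as lower in the same comparisons, with sums of 4263 and 4029, 3508 and 3531, and 3553 and 3095 CPM. The 8 did not move as a set, with 2 and 1 positive. Slc17a6 was higher in both mutant groups, at 15.8 and 15.6, 20.4 and 26.1, and 20.2 and 27.8 CPM, and Camk2a and Neurod6 overlapped between groups. The part of astrocytes and excitatory neurons in the differences of the chain was not tested. None of the astrocyte markers was at 0.

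The 8 oligodendrocyte markers, 0 of which were called, summed to 2556 and 2357 CPM in controls, 5938 and 5991 in vehicle mutants, but 2402 and 5636 in treated mutants. All 5 markers of oligodendrocyte precursors lay above the controls in both treated mutants (median 0.52 on the log2 scale, 0 called), and 1 of them, Gpr17, was called as higher in vehicle mutants than in controls. Their sum was 168.5 and 188 CPM in controls, 234 and 284 in vehicle mutants, and 221 and 275 in treated mutants. Of 8 microglia markers 8 had a positive difference between vehicle mutants and controls, where 1, Itgam, was called, and 7 between treated mutants and controls, with 0 called. Of 3 tested choroid plexus markers 1, Kl, was called, as higher in treated mutants than in controls. The part of these cells in the differences of the chain was not tested.

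Promoters from 250 bases before to 50 after the start (RefSeq, GRCm38.p6) were searched on both strands. The table held 71 start sites of 66 of the 82 genes. The NRF-1 motif (GCGCA and GCGC with any 1 base between them) occurred in 25.4% of them against 4.60% of 32851 promoters of all genes. CCGGAAG, an ETS motif, occurred in 22.5% against 8.86%, and AAGATGGC, a YY1 motif, in 12.7% against 2.75%. These shares describe the letters present and were not tested. The windows shown belong to 4 of the genes with values above and lie upstream of the start, with the motif in capitals.
Ndufs5: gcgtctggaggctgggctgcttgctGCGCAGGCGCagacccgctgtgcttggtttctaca
Atp5h: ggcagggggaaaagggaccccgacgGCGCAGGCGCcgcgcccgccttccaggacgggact
Uqcr11: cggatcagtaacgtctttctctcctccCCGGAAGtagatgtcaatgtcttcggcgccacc
Atp5e: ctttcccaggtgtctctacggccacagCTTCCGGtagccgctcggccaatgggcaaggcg

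The first 2 hold the NRF-1 motif, Ndufs5 at chr4:123718250-123718309 and Atp5h at chr11:115420026-115420085, and the others the ETS motif, Uqcr11 at chr10:80406855-80406914 and Atp5e at chr2:174464171-174464230, all on the minus strand. In Atp5e the ETS motif reads on the opposite strand. The NRF-1 motif also occurs in Sdhd, Sdha and Ndufb4, which lay 0.27, 0.13 and 0.08 (log2) above the controls in the treated mutants. No match was recorded for the called genes Ndufa4 and Cox6a2, whose start sites may not have been searched. Differences of genes with and without a motif were not compared. The genes of the factors, Nrf1, Gabpa and Yy1, are among the 19 regulators of which 0 passed.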

How the data were processed

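The data are 6 RNA-seq libraries, 2 a group, made per the labels' protocols from 1 μg of ribosome-depleted RNA with a stranded kit. The authors deposited 1 file a library with unnormalised read counts by gene symbol. Per the submitters' processing notes they used cutadapt, TopHat2, SAMtools and featureCounts, with edgeR also named, on mm10 (GRCm38). For versions, annotation release, strand setting and reads with several matches, the sources used here give nothing. These settings decide the counts of genes with processed copies and of genes that overlap on opposite strands.

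Counts were tested with edgeR 4.0.16 (R 4.3.3): filterByExpr, TMM scaling, a robust quasi-likelihood fit of 3 groups to all 6 libraries (3 residual degrees of freedom, biological coefficient of variation 11.5%), and a two-sided test with Benjamini-Hochberg adjustment over 18705 genes and a threshold of 0.05. Only the rows of the 82 genes and of the lists are printed. Each SE was derived from the log2 fold change and its F statistic (the size of the change over the root of F). CPM are scaled by TMM. The procedure was tested on simulated counts. Within each group the libraries were more unlike than counting alone gives (9.07 to 12 as chi-square over its degrees of freedom), and each was kept as its own sample.

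Gene models, transcripts and copies came from GENCODE M21. A copy is an annotated gene that shares at least 20 stretches of 50 bases with the principal transcript if it is a pseudogene, and at least 100 otherwise. Figures were drawn with matplotlib 3.10.9.

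The genes, complexes and lists were chosen with earlier results of these data known. Fold changes are named for genes that passed and for the 3 with the smallest p in each complex and comparison; core subunits and isoforms are given as levels. Ndufb10, Cox7a2l, Ndufb4 and the genes with copies were named after their values were seen. Alternatives were other scalings, filters and tools (DESeq2 1.42.0, limma-voom 3.58.1), 4 libraries only, the replicate number as a block, a length and GC correction, a threshold of 0.1 and each library left out. Adding the reads of copies, and using only genes without a shared stretch, were chosen after seeing the data.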

Additional observations from a re-analysis of the deposited data

How the results depend on the processing

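With 2 libraries a group, a left-out library leaves a group with 1, which is assumed to vary like the others. Between vehicle mutants and controls, 0 genes passed in the main fit. There were 2 with no filter on low counts, 2 with DESeq2, 1 with only the 4 libraries compared and 3 at a threshold of 0.1. Over all genes, 807 of 32279 passed with no filter, 602 of 18705 with DESeq2 and 524 of 17951 with only the 4 libraries. Between treated and vehicle mutants 0 passed under every alternative run, and the median of 0.11 ran from 0.0277 to 0.207 when single libraries were dropped.

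Between treated mutants and controls, 2 genes passed, against 6 with library size alone, 5 with no filter, 5 with DESeq2, 1 without the robust option, 0 with limma-voom, 1 with the length and GC correction, 1 with only the 4 libraries compared and 6 at a threshold of 0.1, and 0 to 2 on leaving out a library. Over all genes, 962 of 32279 passed with no filter, 782 of 18705 with DESeq2, 253 with library size alone and 491 in the main fit. Calls numbered 349 without the robust option, 390 with limma-voom, 399 with the length and GC correction and 336 with only the 4 libraries compared. Here the median of 0.25 was 0.335 with library size alone, 0.16 with the length and GC correction, and 0.19 to 0.33 with a library left out. It was 0.25 over the 46 genes that share no stretch. In this comparison 81 genes were positive under each of the 4 scalings.

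The replicate number as a block gave 1 gene in place of 2 between treated mutants and controls, the call of Ndufa4 being lost (adjusted p = 0.0565), and 1 gene with a median of 0.16 together with the length and GC correction. The labels do not say that a shared number pairs samples, and deviations of same-numbered libraries correlated at -0.08, 0.16 and -0.07 across genes.

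Of 852 values of 45 named fold changes, 812 kept their direction and side of the threshold. A fold change that passed in neither fit counted as kept if its sign held. The 45 were picked by their p in these same data, so this count does not measure how stable they are. The 3 that changed sign, with adjusted p near 1, were Sdha (-0.001 without treated mutant 1, range to 0.1313), Sdhb (-0.0524 without treated mutant 1, range to 0.2497) and Uqcrfs1 (-0.0142 without vehicle mutant 2, range to 0.2923), all between treated and vehicle mutants. The cause of these changes was not tested. Depth limits the isoforms with under 50 reads a library.

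The number of calls over all genes also moved with the settings: between vehicle mutants and controls it ran from 6 to 807 around 238, between treated and vehicle mutants from 10 to 106 around 20, and between treated mutants and controls from 6 to 962 around 491.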
